A study of Mus musculus with 6 samples.

Results

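The genes described here are the 3 D-type cyclins, the kinases CDK4 and CDK6 that they activate, and 5 inhibitors of cyclin-dependent kinases. They were taken by gene symbol (Ccnd1, Ccnd2, Ccnd3, Cdk4, Cdk6, Cdkn1a, Cdkn1b, Cdkn2a, Cdkn2b and Cdkn2c), and all 10 were found among the 22477 genes of the count table. Each of the 10 passed the filter on low counts, so each was tested among 18027 genes. The 6 libraries are poly(A) RNA of 4 lung tumors and of normal lung from 2 mice, all of the RPM strain (Rb1/Trp53/MycT58A), a model of small cell lung cancer whose breeders carried floxed Rb1 and p53 and a Cre-switched allele of Myc with the T58A change. Per the labels, all 6 mice received Ad5CGRP-Cre, an adenovirus in which the CGRP promoter drives Cre in neuroendocrine cells of the airway, and the normal samples carry the same genotype and virus labels as the tumors. The virus was given into the trachea at 8 weeks of age, while the age at sampling is not stated in the labels. They describe treatment with vehicle, entinostat or anti-PD-1 but give no arm for these samples, so the comparison made was tumor against normal lung. Library names follow the numbers in the titles (normal 1 and 2, tumor 3 to 6), with 1 mouse per library.

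D-type cyclins are made in response to growth signals and bind CDK4 or CDK6. The active kinase phosphorylates the retinoblastoma protein RB, which then releases E2F factors that switch on genes of DNA synthesis. Inhibitors of the INK4 family (Cdkn2a, Cdkn2b, Cdkn2c) bind CDK4 and CDK6 and keep them from the cyclins, while those of the CIP/KIP family (Cdkn1a, Cdkn1b) bind cyclin-kinase complexes and block mainly CDK2. Cells without RB do not need cyclin D and CDK4/6 to enter S phase, and human small cell lung cancer, in which RB is usually lost, is known for high p16INK4a.

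Total counts ran from 54735438 to 99122494 per library. Rn45s, Rpph1 and Rmrp, RNAs without a poly(A) tail, took at most 0.55% of the counts in normal lung and 5.46% to 13.9% in tumors. Removing the rows of tailless RNA, microRNA and histones before scaling moved the log2 fold changes of all genes by a median of 0.09, and upper quartile scaling moved them by 0.12. The tumor label was checked against neuroendocrine markers, of which 12 of 13 were higher in tumors, with a summed level of 1017 to 1619 CPM (counts scaled to a common library size) against 30.4 to 39.4. Markers of alveolar type 2 cells summed to 22438 and 24799 CPM in the normal samples. Rb1 stood at 62.6 ± 17.6 CPM in tumors (SD, n = 4) and 77.8 ± 8.19 in normal lung (SD, n = 2), which did not differ past the threshold (edgeR quasi-likelihood test, adjusted p = 0.345). Since Cre removes part of the gene, this count says little about the deletion.

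Promoter sequences are shown for 2 of the genes. Cdk4, the kinase gene that rose in every tumor, is known as a target of Myc, the gene engineered in this model, and Cdkn2a, the inhibitor with the largest rise, has 2 separate promoters. The 250 bases before the RefSeq transcription start are printed 5′ to 3′ on the gene's strand, on build GRCm38.p6, which differs from the mm9 build named in the submitters' processing notes. Capitals mark CACGTG, the E-box bound by Myc, in Cdk4, and TTTCCCGC, 1 of 4 searched words of the E2F site, in Cdkn2a.
Cdk4, chr10:127063285-127063534, plus strand: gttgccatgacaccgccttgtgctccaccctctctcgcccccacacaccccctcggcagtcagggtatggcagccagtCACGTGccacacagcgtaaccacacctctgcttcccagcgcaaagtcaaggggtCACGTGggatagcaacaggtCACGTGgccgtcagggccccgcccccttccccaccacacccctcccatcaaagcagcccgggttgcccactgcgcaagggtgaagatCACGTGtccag
Cdkn2a, upstream promoter, chr4:89294620-89294869, minus strand: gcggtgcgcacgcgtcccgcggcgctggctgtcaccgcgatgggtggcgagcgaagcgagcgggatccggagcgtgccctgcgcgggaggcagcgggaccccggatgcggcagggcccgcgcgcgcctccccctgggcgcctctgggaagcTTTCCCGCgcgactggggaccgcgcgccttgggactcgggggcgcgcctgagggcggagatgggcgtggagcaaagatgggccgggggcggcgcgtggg
Cdkn2a, downstream promoter, chr4:89282193-89282442, minus strand: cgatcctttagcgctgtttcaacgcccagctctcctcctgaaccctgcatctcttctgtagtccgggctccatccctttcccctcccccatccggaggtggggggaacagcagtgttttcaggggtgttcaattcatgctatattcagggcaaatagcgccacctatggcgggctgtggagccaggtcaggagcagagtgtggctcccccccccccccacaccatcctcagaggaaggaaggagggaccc

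The Cdk4 window held 4 E-boxes, which began 172, 118, 98 and 11 bases before the start. The word CACGTG reads the same on both strands, and 7.15% of 32851 RefSeq promoters of 300 bases (250 before the start and 50 after) held at least 1, while 8 of them held 4 or more. The E2F site was searched as TTTCCCGC, TTTCGCGC, TTTGCCGC and TTTGGCGC on both strands, and 2.26% of the promoters held one. Among 12 promoters of the 8 genes with an entry, the upstream Cdkn2a promoter was the 1 with such a word, and 3 held an E-box (those of Cdk4 and Cdk6 and 1 of the 2 of Cdkn2c). Entries for Ccnd1 and Ccnd2 were missing. A GC box (GGGCGG), a CRE (TGACGTCA) and an AP-1 site (TGACTCA or TGAGTCA) were also searched, on both strands, and were found in 9, 1 and 0 of the 12. The upstream Cdkn2a promoter starts the transcript of p19ARF, which restrains Mdm2 and so protects p53, and the downstream one that of p16INK4a, an INK4 inhibitor. Both transcripts share their later exons, and the counts, given per gene symbol, do not tell them apart.

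The 3 D-type cyclin genes were lower in tumors and Cdk4 was higher, while the inhibitors went in different directions. Cdk4 and Cdkn2a rose, Ccnd1, Ccnd2, Ccnd3, Cdkn1a and Cdkn2b fell, and Cdk6, Cdkn1b and Cdkn2c did not pass. By edgeR's quasi-likelihood test at an adjusted p under 0.05, 31.3% of all tested genes were higher and 32.6% lower, so the 7 of 10 called here lie near the 63.9% called among all genes. All tumors were above both normal samples for 3 of the 10 genes and below both for 5, against 37.4% and 39.8% of all tested genes, so the 8 without overlap stand beside 77.3%. Without normal 1 the test called 18.0% of all genes higher, and of the 10 genes Cdk4 alone. The median size of the log2 fold change was 2.65 for the 10 genes and 1.42 for all tested genes. Because the 10 genes were chosen with earlier results of these data known, this contrast is descriptive only.

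**Figure D1:**
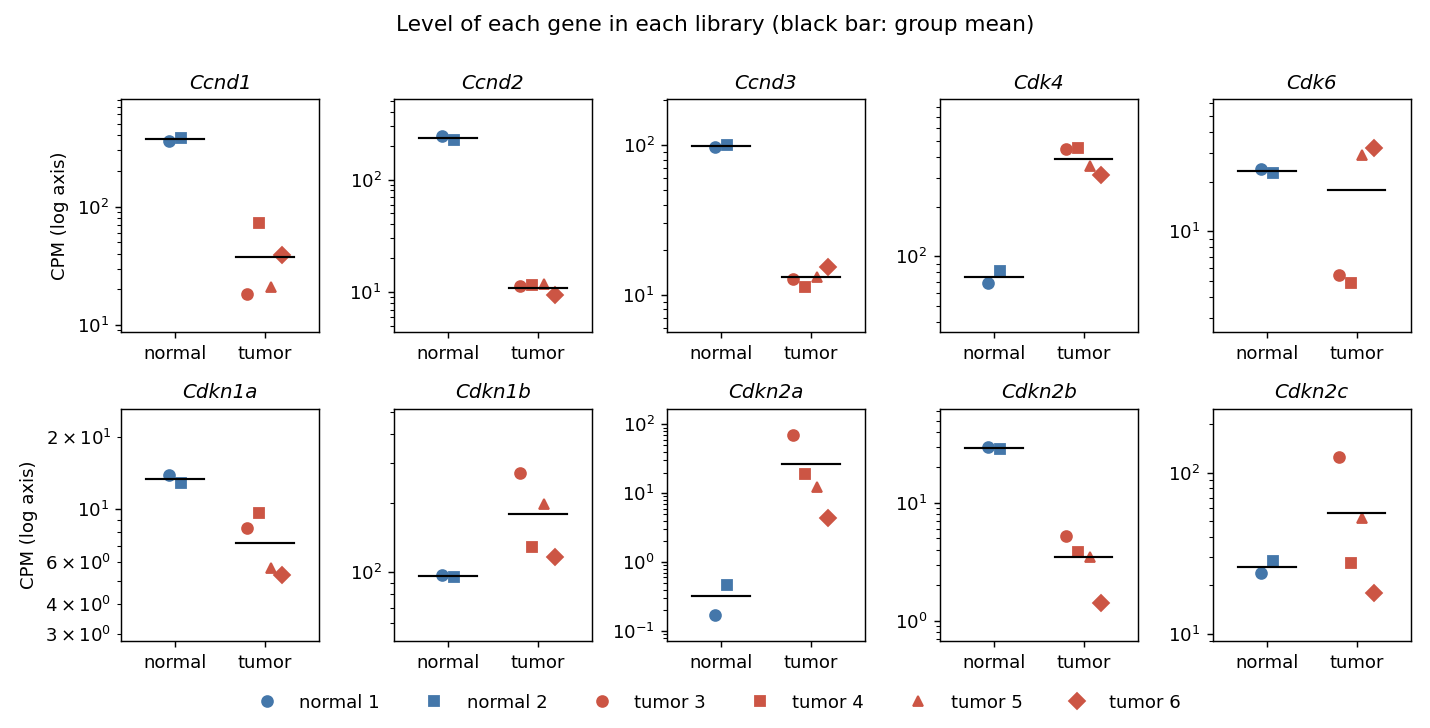
Level of each of the 10 genes in CPM (log axis) in each library, with a symbol per mouse and a black bar at the group mean. All 4 tumors sit below both normal samples for Ccnd1, Ccnd2, Ccnd3, Cdkn1a and Cdkn2b and above them for Cdk4, Cdkn1b and Cdkn2a, while Cdk6 and Cdkn2c lie on both sides.

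Ccnd1, the D-type cyclin most often raised in cancer, stood at 355 and 383 CPM in normal 1 and 2 and at 18.3, 72.3, 20.9 and 38.8 CPM in tumors 3 to 6. Every tumor was below both normal samples, and tumor 4, the highest, was 3.95 times tumor 3, the lowest. The log2 fold change was -3.30 ± 0.54 (SE, adjusted p = 0.00204), a mean level 9.83-fold lower. Ccnd1 shares up to 818 bases of an exon with Oraov1 on the other strand in GRCm38, and reads of the 2 genes cannot be told apart without strand. Oraov1 stood at 17.9 and 19.7 CPM in normal lung and at 9.66 to 12.9 CPM in tumors, below both normal samples in each (log2 fold change -0.68 ± 0.21, adjusted p = 0.028). This call was lost with upper quartile scaling (0.0584), with the rows of tailless RNA, microRNA and histones removed (0.0538) and without normal 1 (0.114), normal 2 (0.175), tumor 5 (0.0521) or tumor 6 (0.0678).

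Ccnd2, a cyclin prominent in blood and neural progenitor cells, was at 242 and 225 CPM in normal lung and at 11.3, 11.5, 11.8 and 9.41 CPM in tumors 3 to 6. The tumors were close to each other, within 1.25-fold, and far below both normal samples. The fall of 21.2-fold (log2 fold change -4.41 ± 0.15, adjusted p = 2.42e-05) had the smallest p of the 10 genes.

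Ccnd3, which serves lymphocytes among other cells, was at 98 and 101 CPM in normal lung and at 12.7, 11.3, 13.2 and 15.3 CPM in tumors 3 to 6. The groups were again apart and the tumors within 1.36-fold of each other. Ccnd3 was 7.59-fold lower (log2 fold change -2.92 ± 0.16, adjusted p = 4.28e-05). Its last exon overlaps that of Bysl on the other strand in GRCm38. Bysl stood at 28.4 to 43.3 CPM over the 6 libraries and did not pass (adjusted p = 0.392).

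The balance between the 3 cyclins was compared on a scale per kilobase of exon, with exon lengths from the GENCODE M21 basic set. Ccnd1 was the most abundant in normal lung, with 98.7 ± 5.18 CPM per kb (SD, n = 2) and 55.5% and 57.8% of the family's summed level. The levels of Ccnd3 (40.6 ± 0.846) and Ccnd2 (34.8 ± 1.84) were closer, and with exons of all GENCODE M21 transcripts their order was reversed, at 11.3 and 24.8. In tumors the share of Ccnd1 was 41.6%, 75.4%, 43.9% and 57.5%, while that of Ccnd2 was 14.3%, 6.69%, 13.8% and 7.78%. Ccnd2 had the lowest level of the 3 in every tumor on the basic lengths, and Ccnd3 slightly exceeded Ccnd1 in tumor 3 (5.17 against 4.89 CPM per kb). With all transcripts, Ccnd2 was again the lowest in every tumor and Ccnd1 was the highest of the 3 in every library (59.5% of the family in tumor 3).

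Many genes of normal lung cells moved with the fall of the cyclins. Of 93 tested markers of 13 other cell types, 81 were lower in tumors, 12 did not pass and 0 were higher, and their summed level went from 79134 to 85196 CPM in normal lung to 2115 to 3410 CPM in tumors. All 10 endothelial markers were lower, with sums of 4528 and 4986 CPM against 68 to 178, as were 6 of 9 fibroblast markers (3374 and 3703 against 334 to 1056) and 6 of 9 macrophage and monocyte markers (4967 and 5406 against 246 to 1146). Lymphocyte markers fell too, 9 of 10 for T and NK cells (30.7 and 40.4 against 2.71 to 7.99) and 5 of 6 for B cells (53.7 and 98.2 against 2.39 to 20.7), the latter 2 of 6 without normal 2. No marker was at 0 in all tumors, and Ncr1, Gzma and Nkg7 were at 0 in at least 1. The part of these cells in the lower cyclin levels was not tested, and in whole tissue fewer cells of a type and less RNA per cell cannot be told apart.

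Cdk4, the main catalytic partner of the D-type cyclins, rose in every tumor. It was at 68.9 and 81.7 CPM in normal lung and at 449, 451, 352 and 312 CPM in tumors 3 to 6. The lowest tumor was well above the higher normal sample, and the tumors lay within 1.45-fold of each other. The rise was 5.19-fold (log2 fold change 2.38 ± 0.24, adjusted p = 0.000285). Cdk4 shares up to 641 bases of an exon with Tspan31 on the other strand in GRCm38. Tspan31 stood at 76.8 and 79.7 CPM in normal lung and 61.5 to 74.8 CPM in tumors. It was lower in each tumor than in both normal samples but did not pass (log2 fold change -0.25 ± 0.14, adjusted p = 0.169).

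Cdk6, the other kinase of the pair, was split among the tumors. It stood at 23.9 and 22.5 CPM in normal lung, at 5.48 and 4.87 CPM in tumors 3 and 4, and at 28.9 and 31.8 CPM in tumors 5 and 6. Tumors 3 and 4 were thus below both normal samples and tumors 5 and 6 above both. The highest tumor was 6.53 times the lowest, against a median of 1.79 over the 17377 tested genes with a count in every tumor. The difference between the groups did not pass (log2 fold change -0.38 ± 0.81, adjusted p = 0.698). Per kilobase of exon, Cdk4 exceeded Cdk6 in every library, at 36.7 ± 4.40 against 2.01 ± 0.082 CPM per kb in normal lung and 191 ± 34.1 against 1.54 ± 1.27 in tumors, and Cdk6 made up 0.192% to 1.78% of the 2 in tumors against 4.68% and 5.81% in normal lung.

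**Figure D2:**
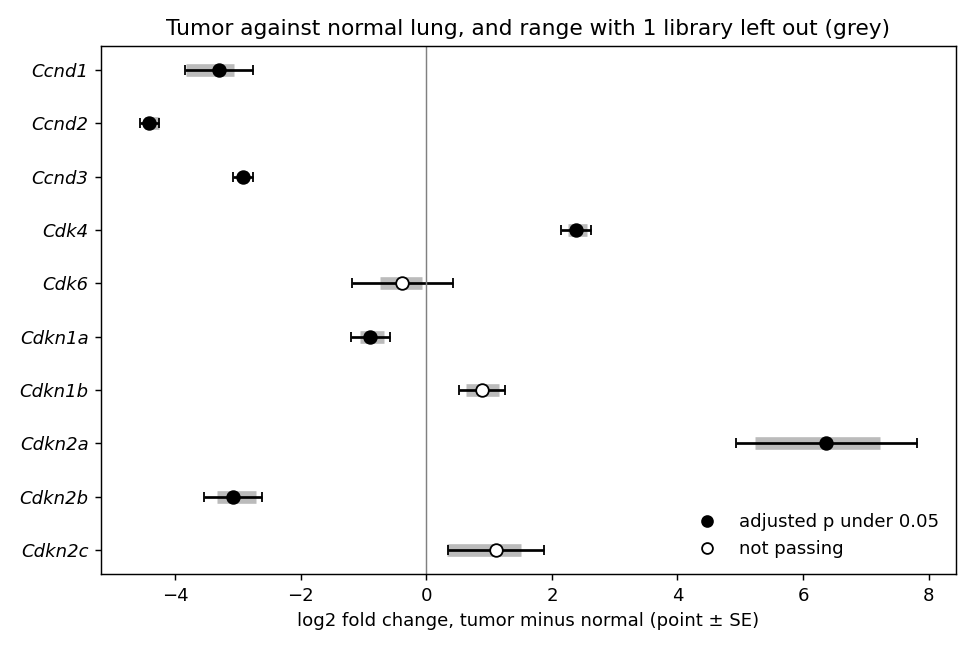
Log2 fold change of each gene, tumor minus normal, with its SE (edgeR), filled where the adjusted p was under 0.05; grey bars span the values with 1 library left out at a time. Ccnd2, Ccnd3 and Cdk4 have the smallest errors, and Cdkn2a the largest change, at 6.37 ± 1.44.

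The CIP/KIP genes differed from each other. Cdkn1a encodes p21, the inhibitor induced by p53, and stood at 13.9 and 12.9 CPM in normal lung and at 8.33, 9.58, 5.65 and 5.28 CPM in tumors 3 to 6. All tumors were below both normal samples, and the fall was 1.85-fold (log2 fold change -0.89 ± 0.31, adjusted p = 0.043). This call was lost without any of the libraries but tumor 4, with adjusted p = 0.0549 without tumor 3 to 0.189 without normal 1, and also with RLE factors (0.0606), upper quartile scaling (0.0723), the stricter filter (0.0515) and the rows of tailless RNA, microRNA and histones removed (0.0682). Trp53, floxed in this model, had a log2 fold change of -0.94 ± 0.27 (adjusted p = 0.019), and this call was lost without normal 1 (0.0908) and without normal 2 (0.105).

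Cdkn1b encodes p27, which accumulates in resting cells and is largely controlled by degradation of the protein. It stood at 97.5 and 95 CPM in normal lung and at 271, 129, 199 and 116 CPM in tumors 3 to 6. Every tumor was above both normal samples, with tumor 3 the highest, but the log2 fold change of 0.89 ± 0.37 did not pass (adjusted p = 0.0719). It passed with DESeq2 (adjusted p = 0.0286) and without tumor 4 (0.0492) or tumor 6 (0.029).

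Among the INK4 genes, Cdkn2a rose from near absence. It had 17 and 43 counts in normal 1 and 2 and 4660, 981, 936 and 297 counts in tumors 3 to 6, or 0.173 and 0.464 CPM against 69.4, 19.3, 12.2 and 4.44 CPM. The lowest tumor was far above both normal samples, and the highest tumor was 15.6 times the lowest, a wider ratio than in 95.9% of the tested genes with a count in every tumor. The mean rise was 82.5-fold (log2 fold change 6.37 ± 1.44, adjusted p = 0.00802). Its size rests on few libraries, at 5.23 without tumor 3 and 7.22 without normal 2, and without normal 1 it was 5.81 and did not pass (adjusted p = 0.061).

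Cdkn2b, the neighbor of Cdkn2a on chromosome 4 and the gene of p15INK4b, moved the other way. It was at 30 and 28.8 CPM in normal lung and at 5.2, 3.85, 3.48 and 1.41 CPM in tumors 3 to 6. The groups did not overlap, and the fall was 8.45-fold (log2 fold change -3.08 ± 0.46, adjusted p = 0.00139). For both genes tumor 3 was the highest of the tumors and tumor 6 the lowest.

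Cdkn2c, the gene of p18INK4c, was not called. It was at 23.8 and 28.1 CPM in normal lung and at 126, 27.4, 52.6 and 17.8 CPM in tumors 3 to 6. Tumors 3 and 5 were above both normal samples, tumor 4 lay between them and tumor 6 was below both. The log2 fold change was 1.11 ± 0.77 (adjusted p = 0.244), and 0.33 without tumor 3. The order of the tumors, 3, 5, 4 and 6 from highest to lowest, was the same for Cdkn2c and Cdkn1b. Of the 13 lists of other cell types, those of macrophages and monocytes, B cells, alveolar type 1 cells, mesothelium and erythroid cells also had their highest sum in tumor 3 and their lowest in tumor 6. For macrophages the sums were 1146 and 246 CPM, of which Lyz2, the lysozyme gene, gave 1034 and 176, while Mrc1, another marker on that list, was highest in tumor 6 (25.1 against 13.6 to 23.3 CPM). The part of these cells in the inhibitor levels was not tested.

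Per kilobase of exon, the 5 inhibitors changed places. In normal lung Cdkn2b (21.2 ± 0.6 CPM per kb) and Cdkn1b (21.1 ± 0.385) were highest and did not differ beyond their spread, followed by Cdkn2c (9.67 ± 1.12), Cdkn1a (4.91 ± 0.259) and Cdkn2a (0.272 ± 0.176). In tumors the order of the means was Cdkn1b (39.3 ± 15.8), Cdkn2a (22.5 ± 25.1), Cdkn2c (20.8 ± 18.2), Cdkn1a (2.65 ± 0.767) and Cdkn2b (2.51 ± 1.13). Cdkn1b was the highest of the 5 within every tumor, though barely above Cdkn2a in tumor 3 (59.6 against 59.3 CPM per kb). Which of Cdkn2a and Cdkn2c was higher differed between tumors, as it did for Cdkn1a and Cdkn2b. Cdkn2a made up 34.3%, 26.9%, 13.3% and 9.77% of the summed level of the 5 genes in tumors 3 to 6, against 0.258% and 0.692% in normal lung. Its counts pool the transcripts of p16INK4a and p19ARF, so the share of p16INK4a alone is not known. Cdkn2b went from 37.8% and 36.3% to between 2.17% and 4.53%.

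Ratios of 2 genes within a library do not depend on how libraries are scaled. The log2 ratio of the counts of Cdkn2a to Cdkn2b was -7.40 and -5.94 in normal lung and 3.74, 2.32, 1.81 and 1.65 in tumors 3 to 6, so the order of the 2 neighbors was reversed in every tumor, with a difference in means of 9.05. The ratio of Cdk4 to Cdk6 was 1.53 and 1.86 in normal lung and 6.35, 6.53, 3.61 and 3.29 in tumors, higher in each tumor than in both normal samples, with a difference in means of 3.25. The ratio of Cdkn2c to Cdkn1a also lay apart, at 0.78 and 1.13 against 3.92, 1.51, 3.22 and 1.75. Each of these 3 reached exact two-sided p = 0.133, the smallest that 2 against 4 libraries allow (permutation test, adjusted p = 0.222 over 5 ratios). The ratios of Ccnd1 to Ccnd2 and to Ccnd3 overlapped between the groups, with exact permutation p = 0.267 for Ccnd1 over Ccnd2 (difference 0.89) and p = 0.533 for Ccnd1 over Ccnd3 (difference -0.59). The ratio of Ccnd2 to Ccnd3, added after its values were seen, was 1.30 and 1.15 in normal lung and -0.16, 0.03, -0.16 and -0.70 in tumors 3 to 6. It was lower in each tumor than in both normal samples, with a difference in means of -1.48 and again the smallest exact permutation p of 0.133 (adjusted p = 0.200 over 6 ratios).

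**Figure D3:**
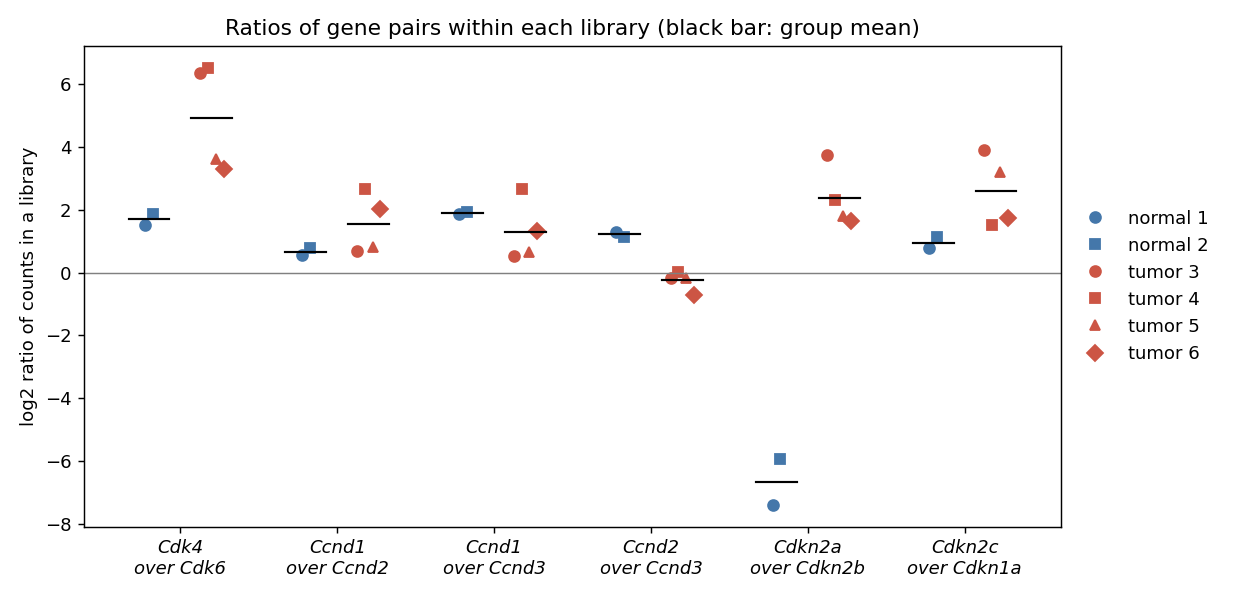
Log2 ratio of the counts of 2 genes within each library, with a symbol per mouse and a black bar at the group mean. Cdkn2a over Cdkn2b is below 0 in both normal samples and above 0 in all 4 tumors, and the ratios of Cdk4 to Cdk6 and of Cdkn2c to Cdkn1a also lie apart, as does Ccnd2 over Ccnd3, while Ccnd1 over Ccnd2 and Ccnd1 over Ccnd3 overlap.

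The genes whose pattern over the 6 libraries was most like that of Cdk4 and of Ccnd2, the members of smallest p in each direction, were sought among 10609 genes by the root mean square difference of centred log2 CPM. Nearest to Cdk4 were Cct6a, a chaperonin subunit (0.06), Timm50, of mitochondrial protein import (0.07), and Rpa2, a subunit of the single-strand DNA binding protein RPA (0.08). Nearest to Ccnd2 were Paqr7, a membrane progestin receptor (0.07), Myo1d, an unconventional myosin (0.08), and Tgfbr2, the type II TGF-beta receptor (0.09).

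The other genes of the pathway were read from lists chosen with earlier results of these data known. The counts of each list stand beside 31.3% higher and 32.6% lower among all tested genes. All 32 listed E2F target genes were higher (median log2 fold change 3.83, against 0.02 over all tested genes), among them Tk1, thymidine kinase, at 15.8-fold, the checkpoint kinase gene Chek1 at 24.7-fold and the mitotic cyclin gene Ccnb1 at 76.1-fold. Of 10 listed genes of cyclins E and A, their kinases and others outside these complexes, such as Cdk14, 8 were higher and 1 lower. Ccne1, the cyclin that activates CDK2 after cyclin D, rose 37.2-fold to 55.7 ± 8.27 CPM (SD, n = 4), Ccna2 rose 21.4-fold and Cdk1 47.4-fold, while Cdk14 fell 1.93-fold. Of 13 genes of the RB family, E2F and DP factors 7 were higher and 2 lower. Tfdp1, the DP partner of E2F factors, rose 8.71-fold and the repressor E2f genes E2f8 and E2f7 14.7-fold and 11.6-fold. Rbl2, the gene of the RB relative p130, fell 3.05-fold, and Tfdp2 fell by 0.96 on the log2 scale, a call lost without normal 1 (adjusted p = 0.153) and without normal 2 (0.0547).

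**Figure D4:**
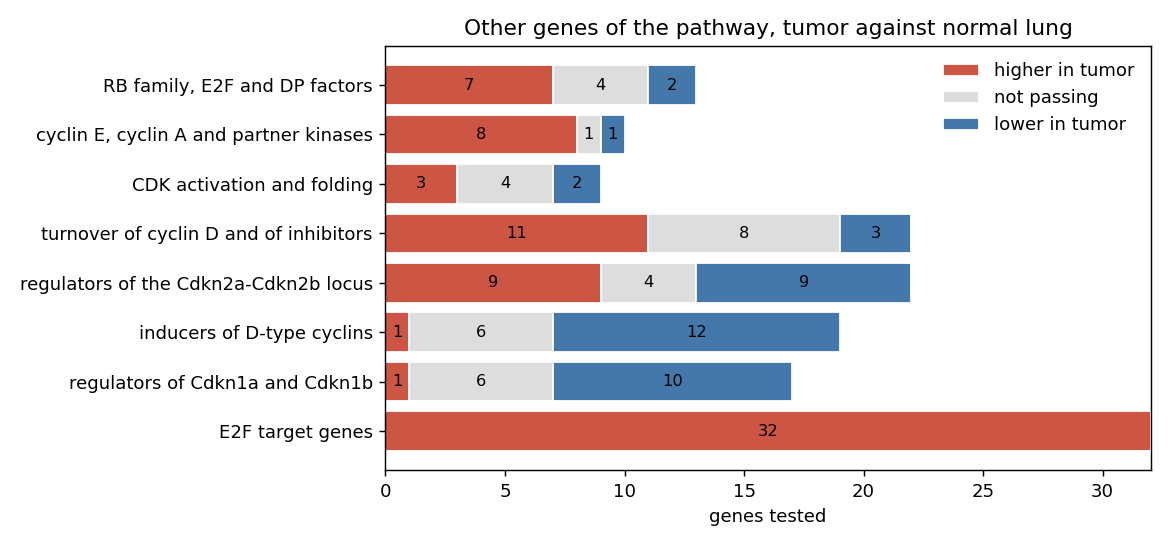
Number of tested genes in 8 lists of the pathway that were higher in tumors, lower in tumors or not passing (edgeR, adjusted p under 0.05). All 32 E2F targets were higher, whereas 12 of 19 inducers of D-type cyclins and 10 of 17 regulators of Cdkn1a and Cdkn1b were lower.

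Of 19 inducers of D-type cyclins, 12 were lower and Myc alone was higher (median log2 fold change -1.77), and without tumor 4 the number higher was 2. Notch1 fell 24.7-fold, the Wnt pathway factor gene Tcf7l2 17.1-fold and Nfkb1 5.23-fold, whereas Myc went from 13.1 ± 7.31 to 125 ± 55.3 CPM (9.54-fold). Myc counts do not tell the transgene from the native gene. Of 17 regulators of Cdkn1a and Cdkn1b 10 were lower and 1, Mdm2, was higher. Among them Tgfbr2, Smad3 and Klf6, of TGF-beta signalling and of Cdkn1a transcription, fell 21.5-fold, 9.54-fold and 7.12-fold. The call of Mdm2 (log2 fold change 0.55 ± 0.20, adjusted p = 0.0493) was lost without the filter (0.0717), without normal 1 (0.168) or normal 2 (0.242) and without tumor 3 (0.0842), tumor 4 (0.0748) or tumor 5 (0.077).

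Of 22 regulators of the locus that holds Cdkn2a and Cdkn2b, 9 were higher and 9 lower, or 5 and 5 without normal 2. The Polycomb genes Ezh2, Cbx2 and Suz12, whose complexes repress this locus, rose 9.58-fold, 5.73-fold and 2.34-fold. The T-box repressor genes Tbx3 and Tbx2 fell 46.1-fold and 24.1-fold, and Ets1, an activator of p16INK4a, 17.2-fold. Of 22 genes of the turnover of cyclin D and of inhibitors 11 were higher and 3 lower, with 6 higher without normal 1 and also without normal 2. Cks2 and Cks1b, small CDK-binding proteins of which Cks1b helps degrade p27, rose 39.1-fold and 19.4-fold, and Dtl, of the ligase that degrades p21 in S phase, 21.5-fold. Fbxo4 and its cofactor Cryab, described in cyclin D1 degradation, fell 3.3-fold and 15.9-fold, and Fbxw8 2.6-fold. Of 9 genes of CDK activation and folding 3 were higher (33.3%) and 2 lower (22.2%), beside 31.3% and 32.6% of all tested genes. Those higher were the CDK-activating kinase genes Ccnh (2.21-fold), Mnat1 (2.5-fold) and Cdk7 (1.52-fold). Those lower were Sertad1 (6.38-fold) and Sertad2 (4.36-fold). The call of Cdk7 was lost without normal 1 (adjusted p = 0.0987) and without normal 2 (0.0835). Cdkn1c, the third CIP/KIP gene, stood at 34.9 ± 3.63 CPM in normal lung and 8.67 ± 8.61 in tumors and did not pass (log2 fold change -2.01 ± 0.82, adjusted p = 0.0674), though it was called with DESeq2, with limma voom and without tumor 5. Cdkn2d, the fourth INK4 gene, was listed but not found under that symbol in the counts, so it was not analysed here.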

How the data were processed

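The deposited values are raw gene counts that the authors made with TPMCalculator, per the labels. Trim Galore, Trimmomatic 0.36, STAR 2.5.4a and the build mm9 are named in the submitters' processing notes, as are DESeq2 1.22.2 and R 3.5.1, without a role or order. No annotation or strand setting is given in the sources used here. Of counts from 1 to 10, 61.2% were even, so a read pair may often have been counted as 2. Counts of 2 normal and 4 tumor libraries, which share 1 batch per the labels, were tested by edgeR 4.0.16 in R 4.3.3 (filter by group with minimum count 10 and minimum total 15, TMM scaling, quasi-likelihood test, tissue as the only term), with Benjamini-Hochberg adjustment over 18027 genes and a threshold of 0.05. The SE of a log2 fold change is its size over the square root of F. CPM use TMM-scaled library sizes.

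The test was tried on simulated counts with known changes first. It called 4% of 50 genes changed 2-fold, 56% at 4-fold, 88% at 16-fold, 98% at 64-fold and 0.0285% of unchanged genes. Far fewer genes changed there than were called in these data, which makes the adjusted threshold stricter. A change near 2-fold that did not pass may thus have been missed. The alternative settings were RLE, upper quartile or no scaling for composition, no filter, a stricter filter (1 CPM or more throughout a group), limma 3.58.1 voom, DESeq2 1.42.0, removal of tailless RNA, microRNA and histone rows, and leaving out each library. Ratios used counts plus 0.5. Exon lengths are unions over GENCODE M21, with all its transcripts as an alternative chosen after seeing the data, as was the ratio of Ccnd2 to Ccnd3, and promoters are from RefSeq. The 10 genes and the lists were chosen with earlier results of these data known. The text names the 10 genes, the engineered genes, up to 3 genes per direction of each pathway list by smallest p, and the 3 nearest genes of 2 members. Tspan31, Bysl, Oraov1, Lyz2, Mrc1 and Cdkn1c and the markers at 0 were named after their values were seen.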

Additional observations from a re-analysis of the deposited data

Results flagged for a closer look

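Of 49 genes examined, 3 had a tumor far from the other 3 relative to the range of the tumors. Chance flags about 1 in 20 groups of this size, so the number flagged is near what chance gives. Tfdp2 was at 42 CPM in tumor 3 against 78.1 to 84.8 CPM in the other tumors. Klf6 was at 57.7 CPM in tumor 4 against 39.9 to 42.2 CPM. Ccnb1 was at 248 CPM in tumor 4 against 219 to 222 CPM, a small difference, as its highest tumor was 1.13 times the lowest.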

How the results depend on the processing

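Over 14 alternatives, Ccnd1, Ccnd2, Ccnd3, Cdk4 and Cdkn2b kept their direction and their call, with log2 fold changes from -3.82 to -3.06, -4.48 to -4.25, -2.96 to -2.80, 2.25 to 2.56 and -3.33 to -2.72, and Cdk6 and Cdkn2c were never called. No direction among the 10 genes was reversed. With 1 library left out, the genes called higher in the whole table numbered 3373 (without normal 1) to 5912, against 5638, and 3740 without normal 2. Of the 10 genes, 1 (Cdk4, without normal 1) to 3 were then called higher, against 2. The cause was not tested. With 1 normal sample left, its spread was assumed to be that of the tumors. With a count of 5 added, and without any 1 library, the 5 ratios, and that of Ccnd2 to Ccnd3, kept their direction. No paired analysis was possible because the groups share no replicate number. Lengths over all transcripts lowered the level per kilobase of Ccnd3 in normal lung from 40.6 to 11.3. Cdkn2a in normal lung rests on 17 and 43 counts.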
